A study of Urocitellus parryii with 3 samples.

Results

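The miR-181 family was followed in small RNA libraries from arctic ground squirrel liver. This rodent, Urocitellus parryii, hibernates in bouts of torpor that short arousals interrupt. The members of the family were miR-181a-5p, miR-181b-5p and miR-181c-5p, and a read was assigned to a member when its first 18 bases were the same as those of the mature miRNA. By this rule 19783 of 17086590 placed reads, and 4619 of 576915 distinct read sequences, belonged to the family. The family was chosen by its read counts in these same libraries, which were known when it was selected, so the stage levels and ratios given here are a description and carry no test.

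Small RNA of 18 to 30 nt was sequenced from 3 libraries. The post-reproduction library was made from 6 summer animals that were not hibernating, kept at 16 h light and 8 h dark. The early arousal library and the late torpor library were each made from 4 hibernating animals kept at 4 h light and 20 h dark, which had passed at least 4 torpor bouts and for which sampling on day 4 of a bout is given. How that day relates to early arousal is not stated in the labels. Equal amounts of RNA from each animal were pooled within a stage, so each stage is 1 library without a replicate, and the spread between animals is not seen. Wherever post-reproduction is compared with another stage, light cycle and hibernation cannot be told apart. All intervals are 95% intervals that cover counting error only. Reads after PCR carry no molecular identifiers and need not be separate molecules, so the intervals may be too narrow.

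A miRNA is a short RNA cut as one arm of a hairpin, and it guides Argonaute proteins to messenger RNAs that pair with its seed, bases 2 to 8. The miR-181 family shares one seed across vertebrates and is best known for its part in lymphocyte development, where miR-181a tunes the sensitivity of T cell receptor signalling; it is also made in many other tissues, the liver among them. In mammals the family is encoded in several clusters that pair a miR-181a gene with a miR-181b gene, or a miR-181c gene with a miR-181d gene.

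The mature sequences are shown because the members differ from one another at few bases. They are the leading parts of the deposited reads that were placed on the genome, 5′ to 3′, with the seed in capitals.
miR-181a-5p: aACATTCAacgctgtcggtgagt
miR-181b-5p: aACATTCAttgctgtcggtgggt
miR-181c-5p: aACATTCAacctgtcggtgagt
The seed was identical in the 3 members. Counting from 1 at the 5′ end, miR-181b-5p differs from miR-181a-5p by A9T, C10T and A21G, and miR-181c-5p lacks the base G11 of miR-181a-5p. The 3 members are therefore separated within the first 18 bases by which reads were assigned. Among all 18-base read starts, 47 shared the first 8 bases of the family. The 44 of these that were no member held 66 reads in all, with at most 5 reads each, while the rarest member held 234. Only reads placed on the genome were counted, and accepting 1 mismatch within the first 18 bases changed no ratio of a member. The low number of other starts therefore does not measure how often a start is misread.

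Each member was placed at a single position, and 0 of its reads had a further position. On the scaffold GeneScaffold_616, miR-181a-5p lay on the minus strand at 165828 to 165850 and miR-181b-5p at 165645 to 165667, so that their first bases were 183 bases apart. On scaffold_132794, miR-181c-5p lay on the minus strand at 4440 to 4461. The build behind these scaffold names is not given in the sources used here, and no gene annotation of it was used. Mammals have more than one gene for miR-181a and for miR-181b with the same mature sequence, so reads placed at these positions need not all come from them.

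Placed reads numbered 5614441 in the post-reproduction library, 5611673 in the early arousal library and 5860476 in the late torpor library. The hepatocyte miRNA miR-122-5p made up 74.9%, 72.4% and 76.3% of them, which fits the liver label, whereas miR-192-5p and miR-194-5p, the other hepatocyte markers searched, had 0 reads. The counts hold only reads placed on the genome, and miRNAs were recognised by recalled sequences not checked against a database. A count of 0 therefore does not show that a miRNA was absent from the liver. Counts were scaled to CPM, the count in 1e6 scaled reads, with trimmed-mean factors of 0.977, 1.18 and 0.869. With plain library totals in place of these factors every log2 ratio of early arousal to post-reproduction is 0.27 higher, and every log2 ratio of late torpor to post-reproduction differs by -0.16, so both scalings are given for the stage ratios of the members. Ratios of partner arms and of single inserts are given with the factors only. Values for the 3 libraries always stand in the order of post-reproduction, early arousal, late torpor.

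The family as a whole was most abundant in the early arousal library. It had 5480, 8918 and 5385 reads. As a share of placed reads, with no scaling factor, this was 0.0976% (0.0950 to 0.1002), 0.159% (0.156 to 0.162) and 0.0919% (0.0894 to 0.0944). The interval of early arousal lay above both others. After scaling, the levels were 1017 CPM (990.3 to 1044), 1376 CPM (1348 to 1405) and 1072 CPM (1044 to 1101).

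miR-181a-5p, the most abundant member, had 3802, 6184 and 3734 reads, or 706, 954 and 743 CPM. The early arousal library stood above the other two, whose levels lay close together. The ratio of early arousal to post-reproduction was 1.35 (1.30 to 1.41), that of early arousal to late torpor was 1.28 (1.23 to 1.34), and that of late torpor to post-reproduction was 1.05 (1.01 to 1.10). With plain totals of all placed reads these ratios became 1.63, 1.73 and 0.941, so the order of late torpor and post-reproduction turned with the scaling while early arousal remained the highest library.

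miR-181b-5p, the neighbour of miR-181a-5p on the scaffold, had 1625, 2616 and 1588 reads. Its scaled levels were 302 CPM, 404 CPM and 316 CPM. The ratio was 1.34 (1.26 to 1.42) for early arousal to post-reproduction, 1.28 (1.20 to 1.36) for early arousal to late torpor and 1.05 (0.978 to 1.12) for late torpor to post-reproduction. With all placed reads as the total, these were 1.61, 1.72 and 0.936. The interval of late torpor to post-reproduction included 1 with the factors used here, and the value turned below 1 with plain totals.

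miR-181c-5p, from the other scaffold, was far rarer, with 53, 118 and 63 reads. Its levels were 9.84 CPM (7.37 to 12.9), 18.2 CPM (15.1 to 21.8) and 12.5 CPM (9.64 to 16.0). The interval of early arousal lay above that of post-reproduction and overlapped that of late torpor. The ratio of early arousal to post-reproduction was 1.85 (1.33 to 2.61), that of early arousal to late torpor 1.45 (1.06 to 2.00) and that of late torpor to post-reproduction 1.28 (0.871 to 1.87). With all placed reads as the total these were 2.23, 1.96 and 1.14.

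**Figure D1:**
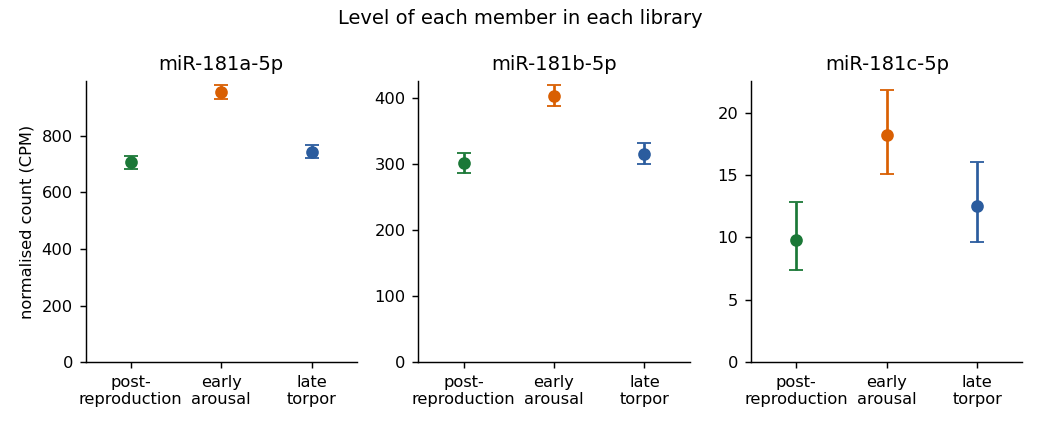
Normalised count (CPM, vertical axis) of each member in the 3 libraries; points are single libraries and bars are exact Poisson 95% intervals of the count. The early arousal point is the highest for each member, at 954 CPM for miR-181a-5p, 404 CPM for miR-181b-5p and 18.2 CPM for miR-181c-5p.

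These differences were of a size that many small RNAs showed between the same libraries. Read starts were compared when they had at least 100 reads over the 2 libraries and at least 1 read in each. Of 607 such starts, 20.9% were at least 1.5-fold higher in early arousal than in post-reproduction. Among the starts past this limit was 1 of the 3 members, miR-181c-5p. The ratio of miR-181a-5p was exceeded by 160 of the 607 starts, that of miR-181b-5p by 164 and that of miR-181c-5p by 71. Between early arousal and late torpor, 17.9% of 586 starts were at least 1.5-fold higher in early arousal and, with these factors, 0 of the 3 members was. Between late torpor and post-reproduction, 49.5% of 576 starts differed at least 1.5-fold in either direction, against 0 of the 3 members. The members' distance from the 1.5-fold limit depended on the scaling: with all placed reads as the total, the 3 members were at 1.63, 1.61 and 2.23 in early arousal against post-reproduction, all past the limit, as were 31.8% of the 607 starts. With the same total they were at 1.73, 1.72 and 1.96 in early arousal against late torpor, again all past the limit, as were 37.2% of the 586 starts.

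**Figure D2:**
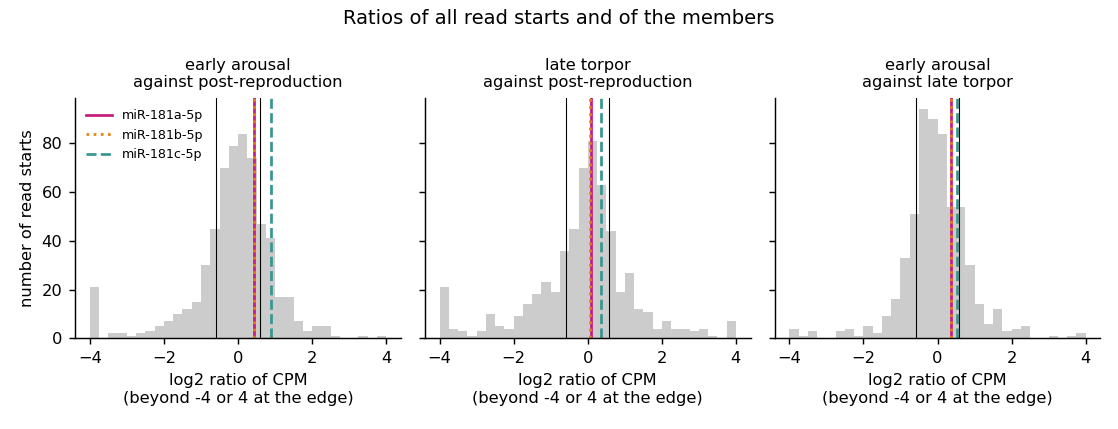
Number of read starts (vertical axis) by log2 ratio of CPM between libraries (horizontal axis). The starts had at least 100 reads over the 2 libraries and at least 1 read in each. Coloured lines mark the members and black lines the 1.5-fold limits. In early arousal against post-reproduction miR-181c-5p lies past the upper limit, with miR-181a-5p and miR-181b-5p inside it, and in the other panels each member lies between the limits.

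The balance within the family needs no scaling between libraries and was nearly constant for the clustered pair. miR-181a-5p made up 69.4% (68.1 to 70.6), 69.3% (68.4 to 70.3) and 69.3% (68.1 to 70.6) of family reads. The number of miR-181a-5p reads for each read of miR-181b-5p was 2.34 (2.21 to 2.48), 2.36 (2.26 to 2.48) and 2.35 (2.22 to 2.495). Each of these intervals contained the values of the other libraries. The share of miR-181c-5p was 0.967% (0.725 to 1.26), 1.32% (1.10 to 1.58) and 1.17% (0.9001 to 1.49), again with overlapping intervals.

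The profile nearest to that of miR-181a-5p among 248 read starts with at least 100 reads in every library was that of miR-181b-5p, at a distance of 0.0105 between their centred log2 levels over the 3 libraries. The next 4 starts lay at 0.0360 to 0.0526. They are given with their most abundant inserts, since the deposited table holds no miRNA names; the names of the first 3 come from general knowledge of their sequences.
miR-138-5p: agctggtgttgtgaatcaggccg
miR-383-5p: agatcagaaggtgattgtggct
miR-129-5p: ctttttgcggtctgggcttgc
unnamed start: tgaggtgggaggatggatagtt
Their reads, by library, were 426, 715 and 431 for miR-138-5p and 761, 1234 and 718 for miR-383-5p. They were 106, 179 and 109 for miR-129-5p and 151, 258 and 150 for the unnamed start. With 3 points for each profile the likeness is a description only.

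In bulk tissue, fewer cells of a type and less RNA per cell cannot be told apart. Markers of cell types other than hepatocytes were therefore set beside the family. The summed level of 6 leukocyte miRNAs was 76.3, 66.2 and 119 CPM, with 2 of the 6 above 100 reads. Of these 2, miR-142-5p, at 47.7, 51.8 and 90.4 CPM, was lowest in post-reproduction. The other, miR-146a-5p, at 23.2, 11.9 and 23.3 CPM, was lowest in early arousal. The lymphocyte miRNA miR-150-5p had 1, 0 and 0 reads, and such low counts carry the limit given above for miR-192-5p. The 2 endothelial miRNAs, miR-126-3p and miR-126-5p, summed to 28.8, 27.3 and 39.8 CPM. The 3 red cell miRNAs summed to 179, 118 and 317 CPM and the 3 of stellate and smooth muscle cells to 4187, 3824 and 3689 CPM. Within the red cell list, miR-451a, at 66.1, 68.4 and 148 CPM, was lowest in post-reproduction. The red cell miRNAs miR-144-3p, at 20.2, 10.2 and 40.2 CPM, and miR-486-5p, at 92.2, 39.8 and 129 CPM, were lowest in early arousal. The 2 neural miRNAs summed to 634, 539 and 580 CPM. Of these, miR-124-3p, at 391, 245 and 324 CPM, was lowest in early arousal, and miR-9-5p, at 242, 294 and 256 CPM, was highest there. Among the stellate and smooth muscle miRNAs, miR-143-3p, at 1890, 1970 and 1632 CPM, and miR-145-5p, at 3.71, 6.02 and 1.59 CPM, were also highest there, whereas miR-199a-3p was lowest there, at 2294, 1848 and 2056 CPM. With these factors none of the 5 summed levels was highest in early arousal, the library in which the members of the family were highest. With all placed reads as the total, this held for the sums of the leukocyte, endothelial and red cell lists. Stellate and smooth muscle miRNAs then stood at 4019, 4416 and 3162 and neural miRNAs at 608, 623 and 497 per 1e6 placed reads. Within the endothelial list, miR-126-5p, with 100, 129 and 129 reads, then had its highest share of placed reads in early arousal. The share of miR-126-3p, with 55, 48 and 71 reads, was lowest there. The part of other cell types in the family's levels was not tested.

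The hairpins' other arms were found by position, as reads starting 25 to 60 bases after the first base of a member on the same strand. The main insert of each is shown, with the seed of that arm in capitals.
partner arm of miR-181a-5p: aCCATCGAccgttgattgtac
partner arm of miR-181b-5p: cTCACTGAacaatgaatgca
partner arm of miR-181c-5p: aCCATCGAccgttgagtggaca
The partner arm of miR-181a-5p shared its seed with that of miR-181c-5p, and not with that shown for miR-181b-5p. The start shown for miR-181b-5p held 3 reads in all, and a start 37 bases after miR-181b-5p held 1 read with another seed. The partner of miR-181a-5p started mainly 40 bases after it, at 165810 on GeneScaffold_616, and a start 1 base earlier held 2, 12 and 8 reads. The partner of miR-181c-5p started mainly 39 bases after it, at 4422 on scaffold_132794.

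The partner arm of miR-181a-5p had 23, 52 and 42 reads. It was 0.601% (0.382 to 0.901), 0.834% (0.623 to 1.09) and 1.11% (0.803 to 1.501) of the reads of both arms. After scaling its level was 1.88-fold (1.13 to 3.22) that of post-reproduction in early arousal and 1.96-fold (1.15 to 3.41) in late torpor. The shares of the 3 libraries overlapped in their intervals. Reads of miR-181a-5p may come from further genes, while its partner arm was counted at a single place. Its share therefore need not be comparable with that of miR-181c-5p. The partner arm of miR-181c-5p was a larger part of the reads counted for both arms. It had 26, 24 and 15 reads, or 32.9% (22.7 to 44.4), 16.9% (11.1 to 24.1) and 19.2% (11.2 to 29.7) of both arms. Its level in early arousal was 0.767 (0.422 to 1.39) of that in post-reproduction, where the main arm stood at 1.85 with an interval that overlapped this one slightly. The partner arm of miR-181b-5p had 2, 1 and 2 reads, too few for a ratio.

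**Figure D3:**
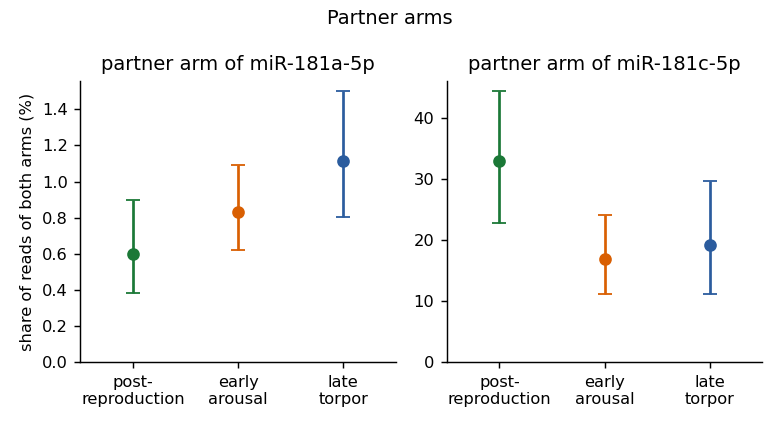
Share of the reads of both arms (percent, vertical axis) that came from the partner arm of miR-181a-5p and of miR-181c-5p in the 3 libraries, with exact binomial 95% intervals. The partner arm of miR-181c-5p lies between 16.9% and 32.9%, that of miR-181a-5p between 0.601% and 1.11%, and the intervals of the 3 libraries overlap in both panels.

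A start at 4295 on scaffold_132794, 166 bases after miR-181c-5p, had 1 read in each library and carried the family seed; it was singled out after its reads were seen, as the place where a miR-181d gene would be looked for.
start after miR-181c-5p: aACATTCAtcgttgtcggtggggt
With 3 reads in all it allows no statement about stages.

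The first base of a miRNA fixes its seed, and starts shifted by 1 or 2 bases were counted for each member. For miR-181a-5p they made up 0.288%, 0.194% and 0.294% of reads within 2 bases. For miR-181b-5p they made up 4.36% (3.44 to 5.44), 4.60% (3.84 to 5.45) and 3.64% (2.79 to 4.66), with the intervals of miR-181b-5p above those of miR-181a-5p in every library. Most of the shifted reads of miR-181b-5p began 1 base earlier, at 165668, with 53, 93 and 42 reads, which moves the seed by that base. The most abundant insert of this start is shown.
miR-181b-5p, 1 base earlier: cAACATTCattgctgtcggtg
miR-181c-5p had no shifted start, and its counts allow a share of up to 6.72%, 3.08% and 5.69% (upper exact binomial limits).

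The 3′ ends, which played no part in choosing the members, were read from inserts of 18 to 25 bases in which the 3′ adapter was found. An insert was found for 76.5%, 81.7% and 85.2% of miR-181a-5p reads and for 62.6%, 73.1% and 74.3% of miR-181b-5p reads. These shares were lowest in post-reproduction for both, as was the share over all placed reads at 83.2%, 84.1% and 88.0%. For 44 other starts with at least 1000 inserts in each library and a main insert placed whole, the median share was 92.1%, 93.9% and 94.6%. Inserts longer than 25 bases cannot be read, and an adapter with more than 1 mismatch is missed as well. Values for miR-181a-5p and miR-181b-5p therefore describe only the inserts found. Why the other reads gave no insert was not tested.

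miR-181a-5p had no dominant length. Inserts of 23 bases made up 22.8% (21.3 to 24.3), 22.2% (21.05 to 23.4) and 22.9% (21.4 to 24.4). Inserts of 18 to 22 bases made up 43.6%, 46.6% and 45.9%, and those of 24 or 25 bases 33.7%, 31.2% and 31.3%. Of the 44 other starts, 44, 44 and 43 had a larger share in their most frequent length, with medians of 51.9%, 49.8% and 49.4%. The 5 most abundant inserts of miR-181a-5p are shown, all placed whole on the genome, because they show the spread of its 3′ end.
20 bases: aACATTCAacgctgtcggtg
23 bases: aACATTCAacgctgtcggtgagt
25 bases: aACATTCAacgctgtcggtgagttt
21 bases: aACATTCAacgctgtcggtga
24 bases: aACATTCAacgctgtcggtgagtt
The insert of 20 bases made up 13.5%, 14.7% and 14.8% of inserts, and the one of 23 bases 13.7%, 13.8% and 15.5%. The mean length was 22.5, 22.4 and 22.4 bases.

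The most frequent length of miR-181b-5p was 24 bases, 1 base longer than the mature form above. Inserts of 24 bases made up 40.7% (37.6 to 43.8), 37.3% (35.2 to 39.5) and 37.4% (34.6 to 40.2), so most inserts had another length. Of the 44 other starts, 38, 40 and 41 had a larger share in their most frequent length. Its leading inserts are shown with unplaced bases, and only these, in capitals.
24 bases: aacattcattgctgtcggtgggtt
25 bases: aacattcattgctgtcggtgggttT
20 bases: aacattcattgctgtcggtg
The first made up 24.95%, 27.1% and 25.5% of inserts and the one with an unplaced T 9.04%, 8.63% and 10.2%. The intervals of the libraries overlapped for both. The insert of 20 bases, which stops at the same base as the most abundant insert of miR-181a-5p, made up 7.47%, 9.25% and 9.75%.

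miR-181c-5p also ended most often at 24 bases, with 49.0% (34.8 to 63.4), 50.9% (41.3 to 60.5) and 64.5% (51.3 to 76.3) of 51, 112 and 62 inserts. Its leading insert, which was placed whole, is shown.
24 bases: aacattcaacctgtcggtgagttt
It made up 41.2%, 42.0% and 56.5% of inserts. Short inserts of 19 to 21 bases were 9.80%, 5.36% and 0% in miR-181c-5p against 34.1%, 35.5% and 36.1% in miR-181a-5p, with intervals that did not overlap in any library. The 0% in late torpor, of 62 inserts, allows up to 5.78%.

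**Figure D4:**
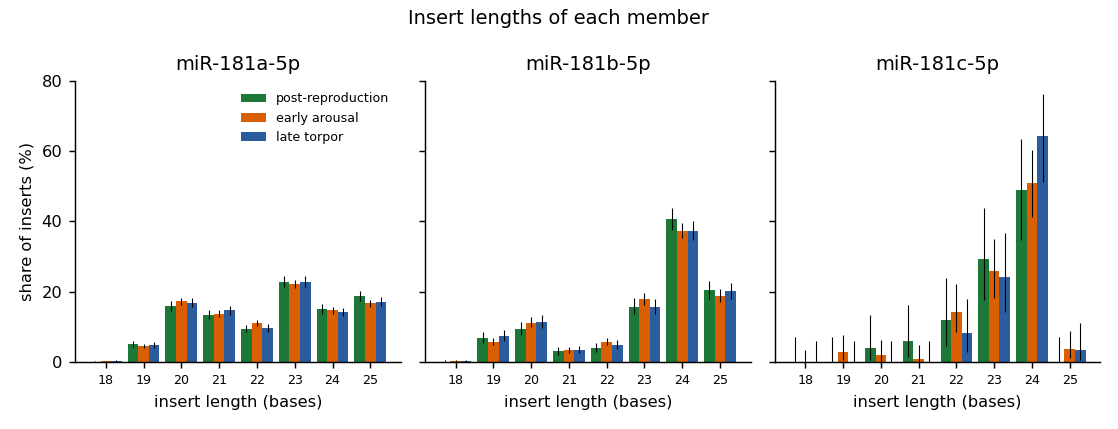
Share of inserts (percent, vertical axis) by insert length (bases, horizontal axis) for each member and library, with exact binomial 95% intervals. miR-181a-5p is spread from 19 to 25 bases with 22.2% to 22.9% at 23 bases, while miR-181b-5p and miR-181c-5p peak at 24 bases.

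Stage ratios of single inserts differed from those of all reads of a member. For the 5 leading inserts of miR-181a-5p, the ratio of early arousal to post-reproduction lay between 1.45 and 1.68, against 1.35 for all reads, and that of late torpor to post-reproduction between 1.29 and 1.44, against 1.05. With the trimmed-mean factors, the ratio of early arousal to late torpor lay between 1.03 and 1.22, against 1.28 for all reads, and its interval included 1 for 3 of the 5 inserts. With all placed reads as the total, every log2 ratio of early arousal to late torpor is 0.43 higher, and these intervals were not computed with that total. For the insert of 23 bases, identical to the mature form, the ratios of early arousal and of late torpor to post-reproduction were 1.45 (1.28 to 1.64) and 1.33 (1.16 to 1.52). For the leading insert of miR-181b-5p they were 1.70 (1.46 to 1.98) and 1.27 (1.07 to 1.51). The post-reproduction library had the lowest share of reads with an insert found and the highest share of changed bases in both members, as given beside these values and with the 3′ ends; their part in these ratios was not tested.

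Bases at the 3′ end that were not placed with the rest of an insert were sorted by base. In miR-181a-5p, unplaced A ends made up 4.47% (3.75 to 5.29), 4.73% (4.16 to 5.35) and 5.15% (4.41 to 5.98) of inserts, and unplaced U ends 1.75%, 2.12% and 1.89%. Tailed ends of 1 to 3 like bases, of any base, made up 9.56%, 8.96% and 8.61%. The intervals of the libraries overlapped. The median of the 44 other starts was 8.21%, 8.69% and 9.89% for A ends and 3.79%, 4.10% and 4.85% for U ends, so that miR-181a-5p lay below the median for both.

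In miR-181b-5p, unplaced U ends were more frequent than in miR-181a-5p, at 10.2% (8.42 to 12.2), 10.3% (8.97 to 11.7) and 11.5% (9.76 to 13.5), and their intervals lay above those of miR-181a-5p in every library. Of the 44 other starts, 13, 14 and 11 had a larger share of U ends than miR-181b-5p. The main miR-181b-5p insert with a U end is the one of 25 bases shown above with its T in capitals. In mammals another gene of miR-181b carries this base in its own hairpin, so an added U cannot be told apart from a read of that gene. Unplaced A ends of miR-181b-5p made up 7.66%, 8.57% and 8.98%. In miR-181c-5p the A ends numbered 1.96%, 7.14% and 6.45% of few inserts, with wide intervals of 0.0496 to 10.4, 3.13 to 13.6 and 1.79 to 15.7.

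Changed bases before the last base of an insert were frequent in miR-181a-5p and miR-181b-5p. They were present in 18.0% (16.6 to 19.4), 14.7% (13.8 to 15.8) and 10.9% (9.81 to 12.003) of miR-181a-5p inserts, with intervals that did not overlap. In miR-181b-5p the shares were 12.3% (10.3 to 14.5), 9.10% (7.84 to 10.5) and 9.83% (8.19 to 11.7), and in miR-181c-5p 7.84%, 8.93% and 6.45%. The median of the 44 other starts was 1.89%, 3.07% and 2.02%, and 1 of the 44 exceeded miR-181a-5p in each library. Only bases from 19 on can show a change, because the first 18 are the placed part by which reads were assigned.

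By position, 4 changes were the most frequent in miR-181a-5p, written with the placed base first and counted from the 5′ end. The change A21G was present in 8.04% (6.86 to 9.35), 4.18% (3.52 to 4.92) and 1.28% (0.839 to 1.87) of inserts reaching past it. The 3 intervals were apart. A21G is also 1 of the 3 differences between miR-181a-5p and miR-181b-5p. The differences A9T and C10T lie within the 18 bases by which reads were assigned. A read with the miR-181b-5p bases there was therefore not counted for miR-181a-5p. The origin of the A21G change was not tested. At the same base, A21T was present in 5.64% (4.65 to 6.77), 6.33% (5.52 to 7.22) and 4.78% (3.90 to 5.80), with overlapping intervals. The change T19G made up 4.63%, 3.34% and 3.04%, and T23G 5.31%, 3.17% and 2.71%. In miR-181b-5p the most frequent change was T23G, at 12.1% (9.62 to 14.9), 7.08% (5.62 to 8.78) and 8.26% (6.30 to 10.6), followed by T19G at 2.95%, 1.39% and 1.28%. For A21G, T19G and T23G of miR-181a-5p the value was highest in post-reproduction and lowest in late torpor.

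Unplaced G ends followed the same order. They made up 3.03% (2.43 to 3.72), 1.72% (1.38 to 2.12) and 1.19% (0.846 to 1.63) of miR-181a-5p inserts and 5.21% (3.92 to 6.75), 3.24% (2.49 to 4.14) and 1.95% (1.24 to 2.91) of miR-181b-5p inserts. The medians of the 44 other starts were 0.294%, 0.352% and 0.273%, and their highest values 2.49%, 1.67% and 1.53%. A changed last base cannot be told apart from an added one, and a sequencing error, a change in the RNA and a copy of the gene that differs there cannot be told apart in these files.

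**Figure D5:**
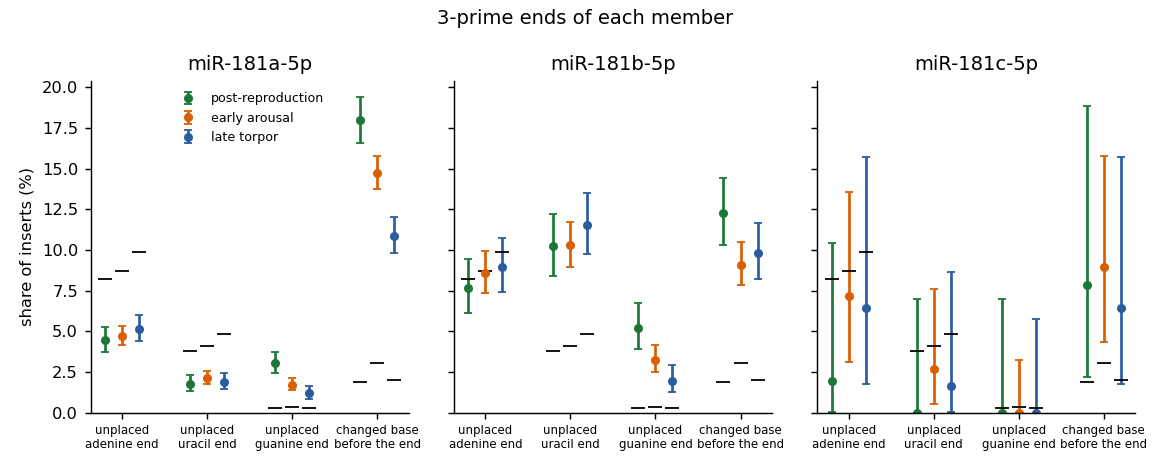
Share of inserts (percent, vertical axis) with an unplaced adenine, uracil or guanine end or a changed base before the end, for each member and library with exact binomial 95% intervals; black dashes are the medians of 44 other read starts in the same library. In miR-181a-5p the changed bases stand at 18.0%, 14.7% and 10.9%, above the dashes, and in miR-181b-5p the uracil ends stand above them.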

How the data were processed

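RNA of the 14 livers was pooled by stage, sized to 18 to 30 nt on a gel, ligated to adapters and amplified in 15 PCR cycles, per the labels' protocols. The authors deposited 1 table of scaffold positions whose text entries hold, per the file headers, a read of 30 bases with its whole-number read count and its stage; the bases placed on the genome are in capitals. Aligner, build and read filters: not given in the sources used here.

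Each distinct read was counted once per stage. A member was the most abundant read start of 18 bases that began with a stem of 12 bases recalled from general knowledge of mammalian miRNAs and not checked against a miRNA database. With no miRNA reference table, the 820 read starts with at least 100 reads and at least 1 in each library served as features for trimmed-mean scaling (30% trimmed on ratio, 5% on abundance; own code, Python 3.11.15, numpy 2.4.6, tested on simulated data). Many of these starts are fragments or variants of other RNAs. The simulation changed a part of the starts in 1 library, about equally often up and down, with Poisson noise only. It does not show how the scaling performs where more starts differ or mostly in 1 direction. CPM, ratios and shares have exact Poisson, conditional binomial or binomial intervals of 95% (scipy 1.17.1), and matplotlib 3.10.9 made the figures. The adapter was searched with up to 1 mismatch over at least 5 bases. A tail was 1 to 3 like bases not placed with the rest.

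The members and lists were chosen with earlier results of these data known. Named by rule were the members with 5 leading inserts each (fewer printed), partner arms, the 5 nearest starts and marker miRNAs; other genes of the family were looked for by position only. The limit for a read start with no count was 3 counts, or 0.557, 0.463 and 0.597 CPM. With 1 library a stage no test was made.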

Additional observations from a re-analysis of the deposited data

How the results depend on the processing

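Of the 10 alternatives run, reads placed at 1 position only and 1 mismatch accepted within the first 18 bases left every ratio unchanged. They therefore add no support. The early arousal value was above both others for the family and for each member under all 10 alternatives. However, with reads identical to the mature form, scaled by the trimmed-mean factors, the interval of early arousal to late torpor included 1 for each member. The ratio was 1.09 (0.972 to 1.23) for miR-181a-5p, 1.23 (0.961 to 1.58) for miR-181b-5p and 2.02 (0.674 to 7.22) for miR-181c-5p. For miR-181c-5p, early arousal to post-reproduction then also included 1, at 1.80 (0.639 to 5.78). Identical reads were not run with other scalings. With all placed reads as the total, every log2 ratio of early arousal to late torpor is 0.43 higher. Scaling moved the sizes: with the plain total of reads in the features, the family ratio was 1.63 for early arousal to post-reproduction, 1.74 for early arousal to late torpor and, on the other side of 1, 0.938 for late torpor to post-reproduction (miR-181a-5p alone 0.937). With all placed reads the values were 1.63, 1.73 and 0.941 (miR-181a-5p alone 0.941). With factors over starts whose main insert had 20 to 24 bases, an alternative chosen after seeing the data, the first pair was 1.44 and 1.35. Factors over starts with 1000 reads or more, also chosen after seeing the data, stayed within the counting intervals. Reads identical to the mature form gave 1.52 for early arousal to post-reproduction, 1.35 for late torpor to post-reproduction and 1.12 for early arousal to late torpor, and reads with the adapter found gave 1.48, 1.19 and 1.24; the cause was not tested. The share of miR-181a-5p in the family was 83.3%, 79.2% and 81.5%, in the stage order of the report, with identical reads, which leaves out the main miR-181b-5p insert by construction, and 73.1%, 71.4% and 71.9% with the adapter found. With no adapter mismatch the share of 23-base inserts was 25.5% in post-reproduction and 24.1% in early arousal. With 8 adapter bases the tailed share in early arousal was 9.94%, and 23-base inserts cannot be read. Starts at least 1.5-fold higher in early arousal than in post-reproduction numbered 127 of 607 (20.9%), 230 of 1055 (21.8%) with a minimum of 50 reads and 3195 of 12281 (26.02%) with 1 read in each library. Those higher than in late torpor numbered 105 of 586 (17.9%), 199 of 998 (19.9%) and 3112 of 11726 (26.5%). Those different in either direction between late torpor and post-reproduction numbered 285 of 576 (49.5%), 507 of 975 (52%) and 5527 of 10176 (54.3%). The lower minimum raised both the number of starts counted and the share past the limit. Scaling and background over all 18-base starts were already the form used. No paired analysis was possible because each stage has 1 library and the labels give no replicate numbers, and no library could be left out.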
